A study of Homo sapiens with 4 samples.

Results

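p53 is a transcription factor that is stabilised and activated when DNA is damaged. It then switches on genes that stop the cell cycle, supply nucleotides for repair, limit oxidative stress or start apoptosis, and it also raises MDM2, the ubiquitin ligase that removes p53 again. HEK293T, an established human embryonic kidney cell line, makes the large T antigen of the virus SV40, which binds p53 and blocks its activity on target genes, and this is a known limit of the line as a model of the p53 pathway. Because Cas9 makes breaks in DNA and edited lines can be selected for altered p53 activity, the levels of p53 target mRNAs were compared between an edited line and its parent.

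Described here are 9 target genes of p53, taken by symbol from a table of 27011 genes: MDM2, CDKN1A, BAX, GDF15, BBC3, TP53I3, RRM2B, SESN1 and ZMAT3. They were listed as known targets, not by their values, but with earlier results on these libraries known. RNA-Seq was performed on total RNA of untreated HEK293T cells, with 2 biological replicates of WT cells and 2 of Helz-null cells. The Helz-null cells carry a short frameshifting deletion in the coding sequence of the helz gene, made with Cas9 and 1 guide RNA, and HELZ is an RNA helicase with a zinc finger. The sources do not state whether the edited line descends from a single cell, so what belongs to the loss of HELZ and what belongs to this line cannot be told apart. All 9 genes had reads in every library, and 8 were among the 10978 genes of the authors' comparison, on which the tests were run. GDF15 was not.

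The libraries held between 41745401 and 70464140 counts. HELZ, the edited gene, measured 99.8 and 103.9 CPM (a gene's counts scaled to a fixed library total) in WT cells and 36.98 and 37.88 CPM in Helz-null cells, so the labels and the edited gene go the same way (log2FC -1.44, adjusted p = 2.13e-27 from edgeR). All CPM values are TMM-normalized, that is, scaled so that most genes do not differ between libraries. All 6 markers listed for HEK293 cells (VIM, KRT8, KRT18, NEFL, NEFM and PAX2) were detected in every library, from PAX2 at 5.19 to 7.07 CPM to VIM at 964.3 to 1074 CPM. Of the 5 markers tested, NEFM was higher and 3 were lower in Helz-null cells, among them KRT8 at 27.4 and 29.98 against 13.9 and 14.9 CPM. The fall of KRT18 was not called in DESeq2, with library size only or in 3 of the fits that left out 1 library, and that of VIM was not called without Helz-null replicate 2 (adjusted p = 0.0099). The part of this in the results on p53 targets was not tested. In edgeR's quasi-likelihood test, called at an FDR under 0.005 after Benjamini-Hochberg adjustment over the 10978 genes, 29.4% of all genes were called, 13.9% upwards and 15.5% downwards. Replicates were close, with a biological coefficient of variation of 2.6%, and counts of p53 targets have to be read against this background. In such bulk libraries, fewer cells of a kind and less RNA per cell cannot be told apart.

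p53 binds a response element made of a decamer that is repeated head to tail, with a short core of the p53 consensus at the centre of each decamer. The 20-base sites below are shown because they are the sequence feature through which the factor recognises these genes. They were found in the GRCh37 (hg19) genome within 2500 bases on either side of the start of the canonical GENCODE transcript, allowing at most 3 mismatches to the p53 consensus outside the 2 cores, an intact core in each decamer and no spacer; the limit was set with known sites in view. The consensus reads the same on both strands. Each site is written 5′ to 3′ in the direction of the gene, with the cores in capitals.
ZMAT3: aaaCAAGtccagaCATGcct
CDKN1A: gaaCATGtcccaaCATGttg
GDF15, before the start: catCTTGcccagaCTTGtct
GDF15, first exon: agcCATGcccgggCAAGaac
BBC3: ctgCAAGtcctgaCTTGtcc
TP53I3: cagCTTGcccaccCATGctc

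The ZMAT3 site matched the consensus with 0 mismatches and lies in an intron at chr3:178787976-178787995 (minus strand). That of CDKN1A, with 2 mismatches, lies at chr6:36644226-36644245 (plus strand), 2265 bases before the start of the canonical transcript and across the first bases of the annotated gene, which begins at 36644237. GDF15 had a site with 2 mismatches 850 bases before the start of its canonical transcript, at chr19:18496118-18496137 (plus strand), and one with 3 in the coding part of that transcript's first exon, at chr19:18496996-18497015. The BBC3 site, with 3 mismatches, lies 140 bases before the start of the canonical transcript at chr19:47734577-47734596 (minus strand), and the TP53I3 site, also with 3, lies 350 bases before it at chr2:24308035-24308054 (minus strand). These sites of GDF15, BBC3 and TP53I3 lie within the annotated genes, which begin before the canonical start. Sites with at most 2 mismatches were present in 3 of 8 windows of the targets and in 2.19% of the 10497 windows of tested genes. With at most 3 mismatches these numbers were 5 of 8 and 12.4%. No match was found for MDM2, BAX and SESN1, which says only that these letters are not in this window, and RRM2B was not searched. The targets were listed because p53 acts on them, so the sites are a description of the genes and not independent evidence.

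Taken as a group, the p53 targets did not move in 1 direction between WT and Helz-null cells. Of the 8 tested genes, BAX and BBC3 were up-regulated, MDM2 was down-regulated, and CDKN1A, TP53I3, RRM2B, SESN1 and ZMAT3 were not called. This is 37.5% of the tested targets, against 29.4% of all genes tested. Their median log2FC was 0.040, against -0.00091 over all tested genes. The summed level of the 9 genes was 503.9 and 521.6 CPM in the WT libraries and 517.1 and 509.2 CPM in the Helz-null libraries, and these ranges overlap. Groups that did not overlap were found for 6 of the 8 tested targets and for 70.6% of all tested genes.

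**Figure D1:**
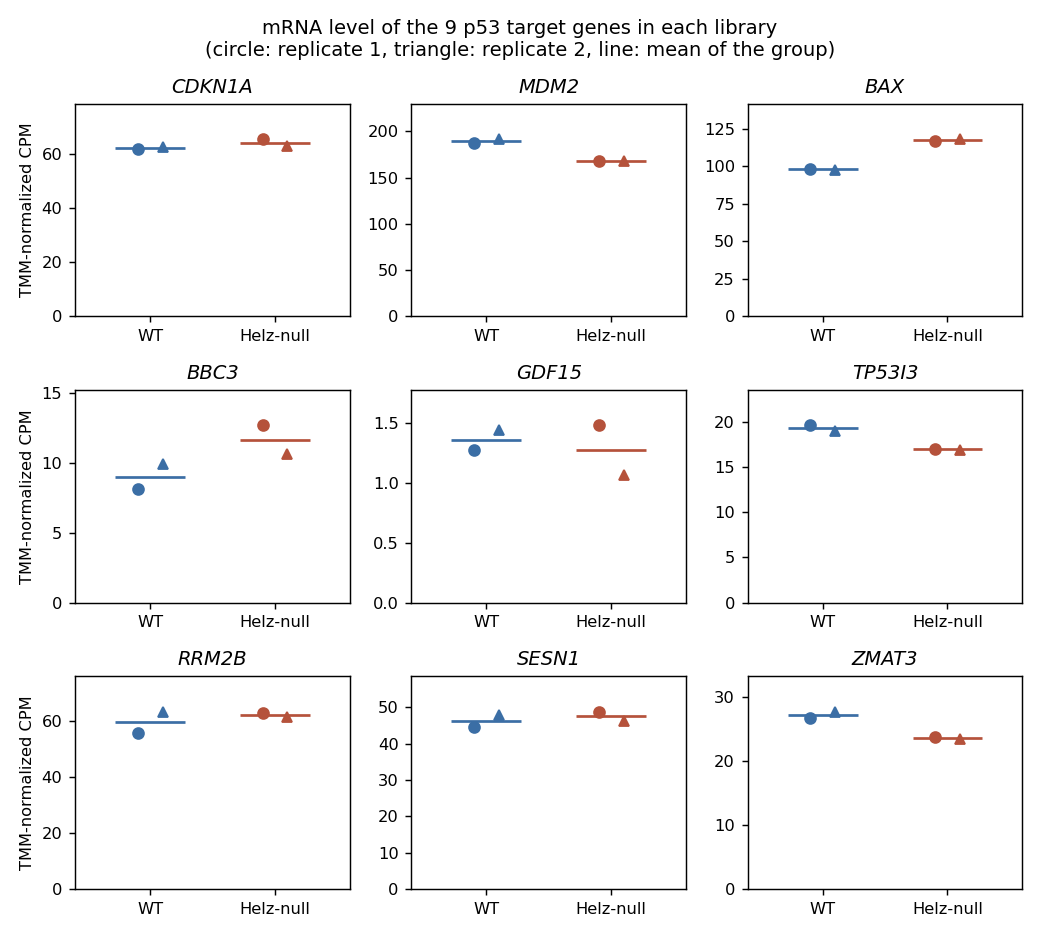
TMM-normalized CPM (vertical axes, from 0) of the 9 p53 target genes in the 2 WT (blue) and 2 Helz-null (red) libraries; each point is 1 library and each line the mean of its group. BAX sits at 97.7 to 98.6 CPM in WT and 117.1 to 118.2 CPM in Helz-null cells, whereas the CDKN1A values lie between 62.1 and 65.7 CPM in all 4 libraries.

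Cell cycle arrest after p53 activation runs mainly through CDKN1A, which codes for the cyclin-dependent kinase inhibitor p21. CDKN1A (chromosome 6 of hg19, 36644237 to 36655114, plus strand) measured 62.1 and 62.8 CPM in WT cells and 65.7 and 63.0 CPM in Helz-null cells. The Helz-null values were the higher ones, but by less than they differed from each other. The difference amounted to 3.02% (log2FC 0.041, standard error 0.042, adjusted p = 0.46 from edgeR), and the 95% interval of the fold change ran from 0.97 to 1.09. Of all tested genes, 78.9% had a larger absolute log2FC. An induction of CDKN1A above 1.09-fold is thus outside the interval that these libraries give, from 2574 to 4394 counts of the gene per library. This interval covers differences between these libraries only. Whether DNA damage occurred was not tested, and T antigen binds p53 in these cells.

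MDM2 acts on p53 itself, as the ligase that marks it for destruction, and is also its target. MDM2 (chromosome 12, 69201957 to 69239324, plus strand) was the target with the most reads, at 187.1 and 191.7 CPM in WT cells and 167.6 and 168.2 CPM in Helz-null cells. Both Helz-null values lay below both WT values, and the replicates of each cell type were closer to each other than to the other type. MDM2 fell by 11.3% (log2FC -0.17, standard error 0.031, adjusted p = 1.68e-05 from edgeR). The gene overlaps the exons of a long non-coding RNA on the opposite strand over 785 bases, and since the use of strand in counting is not stated, reads of both cannot be told apart. It also overlaps a processed pseudogene on the same strand over 439 bases.

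MDM4, the paralog of MDM2 that binds p53 and holds down its activity, moved in the same direction. It fell by 18.4%, from 26.5 and 28.5 CPM in WT cells to 22.9 and 21.9 CPM in Helz-null cells, without overlap (log2FC -0.29, standard error 0.064, adjusted p = 0.00026 from edgeR). Without Helz-null replicate 2, MDM4 was no longer called (log2FC -0.26, adjusted p = 0.011). p53 is controlled mainly at the level of the protein, which was not measured.

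BAX and BBC3 belong to the arm of p53 that leads to cell death, and both lie on chromosome 19. BAX codes for a protein that opens pores in the outer mitochondrial membrane. BAX (chromosome 19, 49458072 to 49465055, plus strand) measured 98.6 and 97.7 CPM in WT cells and 117.1 and 118.2 CPM in Helz-null cells. The gap between the cell types was many times the gap between replicates. BAX rose by 19.9% (log2FC 0.26, standard error 0.035, adjusted p = 5.48e-08 from edgeR). Of all tested genes, 16% changed by more.

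BBC3 codes for PUMA, a BH3-only protein that frees BAX from its inhibitors. BBC3 (chromosome 19, 47724079 to 47736023, minus strand) measured 8.12 and 9.93 CPM in WT cells and 12.7 and 10.6 CPM in Helz-null cells, from 407 to 742 counts per library. The groups did not overlap, but WT replicate 2 and Helz-null replicate 2 were close. BBC3 was called as up-regulated (log2FC 0.37, standard error 0.10, adjusted p = 0.0033 from edgeR), with the largest estimate and the widest 95% interval of the targets, 0.16 to 0.58. This call rested on single libraries. Without WT replicate 1 the log2FC was 0.22 (adjusted p = 0.13), and without Helz-null replicate 1 it was 0.25 (adjusted p = 0.098). DESeq2 did not call BBC3 either (adjusted p = 0.026).

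**Figure D2:**
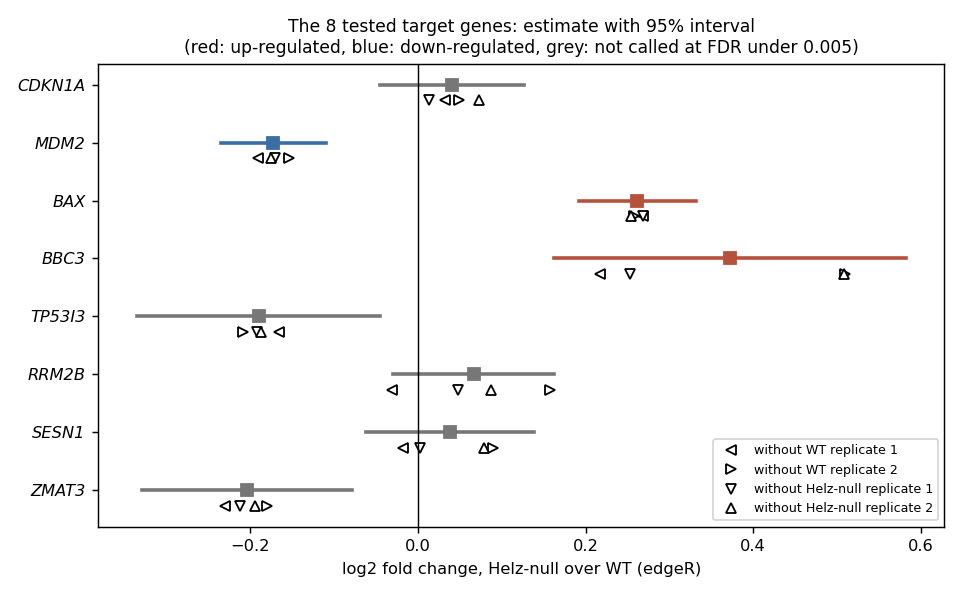
log2 fold change of Helz-null over WT cells (horizontal axis) for the 8 tested p53 target genes; squares and bars give the edgeR estimate and its 95% interval, open triangles the estimate with 1 library left out. BAX stays between 0.25 and 0.27 with any library left out, BBC3 ranges from 0.22 to 0.51, and the interval of CDKN1A includes 0.

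TP53I3 and ZMAT3 resembled MDM2 in direction without passing the threshold. TP53I3 codes for a quinone oxidoreductase linked to oxidative stress, and ZMAT3 for an RNA-binding zinc-finger protein that regulates splicing. TP53I3 (chromosome 2, 24300303 to 24308731, minus strand) measured 19.6 and 19.03 CPM in WT and 17.0 and 16.9 CPM in Helz-null cells (log2FC -0.19, standard error 0.072, adjusted p = 0.029 from edgeR). ZMAT3 (chromosome 3, 178677909 to 178790003, minus strand) measured 26.7 and 27.7 CPM in WT and 23.7 and 23.5 CPM in Helz-null cells (log2FC -0.20, standard error 0.062, adjusted p = 0.0069 from edgeR). For both genes the groups did not overlap. ZMAT3, whose value lay just outside the threshold, was called in 3 of 15 alternative analyses, and TP53I3 in 0 of 15, with an unadjusted p of 0.012 in edgeR.

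RRM2B and SESN1 did not separate the cell types. RRM2B codes for p53R2, the small subunit of ribonucleotide reductase that serves DNA repair, and SESN1 for sestrin 1, which restrains mTORC1 signalling under stress. RRM2B (chromosome 8, 103216730 to 103251189, minus strand) measured 55.7 and 63.3 CPM in WT cells and 62.9 and 61.2 CPM in Helz-null cells. The Helz-null values fell between those of the WT libraries (log2FC 0.066, 95% interval -0.030 to 0.16, adjusted p = 0.27 from edgeR). SESN1 (chromosome 6, 109305512 to 109416049, minus strand) measured 44.7 and 48.0 CPM in WT cells and 48.8 and 46.3 CPM in Helz-null cells, with overlapping groups (log2FC 0.038, 95% interval -0.062 to 0.14, adjusted p = 0.56 from edgeR). SESN1 overlaps a long non-coding RNA on the opposite strand over 243 bases. The estimates for RRM2B and SESN1 changed sign without WT replicate 1, to -0.031 and -0.018, and were higher without WT replicate 2, at 0.16 (adjusted p = 0.0057) and 0.089 (adjusted p = 0.20).

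GDF15 codes for a secreted stress cytokine that rises strongly after p53 activation in many cell types, and its level was low in these cells. GDF15 (chromosome 19, 18485541 to 18499986, plus strand) had 80 and 59 counts in the WT libraries and 61 and 74 counts in the Helz-null libraries. These correspond to 1.27 and 1.44 CPM in WT cells and 1.48 and 1.06 CPM in Helz-null cells, well above the floor of 3 counts, which is 0.043 to 0.073 CPM. The highest and the lowest value were both from Helz-null cells. In a fit on 16087 genes that pass edgeR's filter on low counts, its log2FC was -0.12 (adjusted p = 0.75).

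Levels of different genes were compared per length, as FPKM, with the gene width of the count table. In WT cells BAX was the highest at 75.2 ± 0.48 FPKM, followed by MDM2 at 25.0 ± 0.43, CDKN1A at 23.7 ± 0.17, SESN1 at 12.8 ± 0.65 and RRM2B at 11.4 ± 1.04 FPKM (SD, n = 2 libraries each). TP53I3 lay between 9.35 and 9.65 FPKM in WT cells. BBC3 at 4.31 ± 0.61, ZMAT3 at 2.98 ± 0.071 and GDF15 at 1.13 ± 0.097 FPKM came below (SD, n = 2 each). No neighbours in this order overlapped between their libraries, although SESN1 and RRM2B came close, with a lowest value of 12.3 FPKM for SESN1 and a highest of 12.2 FPKM for RRM2B. In Helz-null cells the order was the same except that CDKN1A, at 24.4 ± 0.71 FPKM, stood above MDM2, at 22.2 ± 0.056 FPKM (SD, n = 2 each). CDKN1A and MDM2 thus changed places in the order, and the other 7 genes kept theirs.

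Paralogs and protein partners of these genes showed no common direction either. In a list of 9 such genes, the test could be run on 8, and it called 2 upwards and 2 downwards (median log2FC -0.059), which is 50% against 29.4% of all genes tested. MDM4, described above, was among the latter. CDKN1C, which codes for the kinase inhibitor p57, rose from 2.31 and 2.34 CPM in WT to 3.82 and 4.33 CPM in Helz-null cells (log2FC 0.82, standard error 0.16, adjusted p = 6.32e-05 from edgeR). At 1.1965 and 1.2132 FPKM in WT and 1.98 and 2.24 FPKM in Helz-null cells, CDKN1C came above 2 FPKM, the limit of the authors' gene list, only in a Helz-null library, so this filter favoured a call upwards. Without Helz-null replicate 2 the call was lost (log2FC 0.72, adjusted p = 0.0063). CDKN1B, the gene for p27, was not called (log2FC 0.083, adjusted p = 0.20). SESN2, the sestrin that responds to both p53 and amino acid shortage, fell by 15.0% (log2FC -0.23, adjusted p = 6.84e-07), and SESN3 was not called (log2FC -0.039, adjusted p = 0.53). RRM1, the large subunit with which RRM2B works, was up-regulated (log2FC 0.12, adjusted p = 0.0013), but not without WT replicate 1 (adjusted p = 0.013) or without Helz-null replicate 2 (adjusted p = 0.065). RRM2, the small subunit used for replication, was not called (log2FC -0.082, adjusted p = 0.024), except without WT replicate 2 (log2FC -0.12, adjusted p = 0.00036). Of the other effectors of BAX type, BAK1 was not called (log2FC -0.078, adjusted p = 0.14), and BOK was not tested, at 1.19 to 1.61 CPM.

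Other genes of the p53 pathway were examined as lists. Some genes stand in more than 1 list, namely MDM4, SESN2, RRM2, BAK1, BOK, PMAIP1 and BID. The percentages called, that of the paralogs included, are therefore not independent of each other. Of 13 tested regulators and relatives of p53, 2 were called upwards and 1 downwards (median log2FC 0.061), that is 23.1% against 29.4% of all genes. HIPK2, a kinase that phosphorylates p53 in lethal damage, had the largest change (log2FC 0.35, adjusted p = 8.67e-11), followed by the fall of MDM4 and a rise of RFWD2, which codes for the ubiquitin ligase COP1 (log2FC 0.22, adjusted p = 8.10e-05). HIPK2 lies among genes on chromosome 7 of which 30 of 33 tested within 5 Mb were above 0, with a median log2FC of 0.21. Among 20 genes for DNA damage sensors and checkpoint kinases, 3 were up and 4 down (median 0.037), which is 35% against 29.4% of all genes. MDC1, the adaptor that binds marked chromatin at breaks, rose (log2FC 0.27, adjusted p = 2.90e-09), while HUS1, part of the clamp loaded at damage (log2FC -0.36, adjusted p = 6.20e-05), and ATRIP, the partner of ATR (log2FC -0.27, adjusted p = 0.00061), fell. The call of HUS1 was lost without Helz-null replicate 1 (log2FC -0.25, adjusted p = 0.011), and that of ATRIP without Helz-null replicate 2 (log2FC -0.21, adjusted p = 0.037) and in DESeq2 (adjusted p = 0.0054).

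Among 14 other tested p53 targets of arrest, repair and metabolism, 2 were up and 4 down (median log2FC -0.034), which is 42.9% against 29.4% of all genes. TP53INP1, which promotes p53-dependent death and autophagy, rose (log2FC 0.40, adjusted p = 0.00043). With 1.62 and 1.68 FPKM in WT and 2.19 and 2.16 FPKM in Helz-null cells, TP53INP1 also passed that limit only in Helz-null libraries, which favoured a call upwards. Its call was lost without WT replicate 1 (adjusted p = 0.0055) and without Helz-null replicate 2 (adjusted p = 0.0053). The other called rise was that of FDXR, a mitochondrial reductase that is widely used as a marker of radiation exposure (log2FC 0.35, adjusted p = 9.87e-07). FBXO22, a ubiquitin ligase subunit, fell (log2FC -0.40, adjusted p = 1.16e-09), but its exons overlap those of NRG4 on the opposite strand over 1576 bases, so its count is uncertain. Exon overlaps were looked for only in the 9 targets, FBXO22 and AEN. The counts of all other genes named here were not checked for them. Among 12 tested targets of cell death, 1 was up and 3 were down (median -0.049), which is 33.3% against 29.4% of all genes. AEN, an apoptosis-enhancing nuclease, fell by 29.3% (log2FC -0.50, adjusted p = 3.86e-15), PMAIP1, which codes for the BH3-only protein NOXA, fell by 17.3% (log2FC -0.28, adjusted p = 3.55e-09), and the death receptor TNFRSF10B was just past the threshold (log2FC -0.14, adjusted p = 0.0046). TNFRSF10B was not called with any of the 3 other scalings (adjusted p from 0.0060 to 0.025), with filterByExpr (adjusted p = 0.0076), in DESeq2 (adjusted p = 0.039), without WT replicate 2 (log2FC -0.070) or without Helz-null replicate 2 (log2FC -0.085). EDA2R, a p53-induced receptor of the TNF family on chromosome X, was not in the authors' comparison and is named because its values stood out when they were seen. It measured 4.36 and 4.32 CPM in WT cells and 0.90 and 0.96 CPM in Helz-null cells, from 274 and 177 counts against 37 and 67. EDA2R fell by 78.6% (log2FC -2.22, adjusted p = 3.05e-11 from edgeR on the 16087 genes), and the tested genes within 5 Mb had a median of 0.032. PMAIP1 and BBC3, both BH3-only targets of p53, hence had opposite signs, and the difference between them was not tested.

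The cell cycle genes that p53 lowers through p21 and the DREAM complex give a further view of the arrest arm. Of 23 tested, 3 were up and 3 were down, which is 26.1% against 29.4% of all genes, and their median log2FC was 0.038. KIF23 (log2FC -0.47, adjusted p = 1.05e-13) and PRC1 (log2FC -0.31, adjusted p = 4.10e-11), which build the central spindle, fell, whereas the checkpoint kinase TTK rose (log2FC 0.23, adjusted p = 6.88e-06). KIF23, PRC1, AEN and FBXO22 all lie on the long arm of chromosome 15, where tested genes within 5 Mb had median log2FC values of -0.27, -0.34, -0.34 and -0.36. The neighbours of ATRIP on chromosome 3 had a median of -0.23. The part of the neighbourhood in these falls was not tested.

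**Figure D3:**
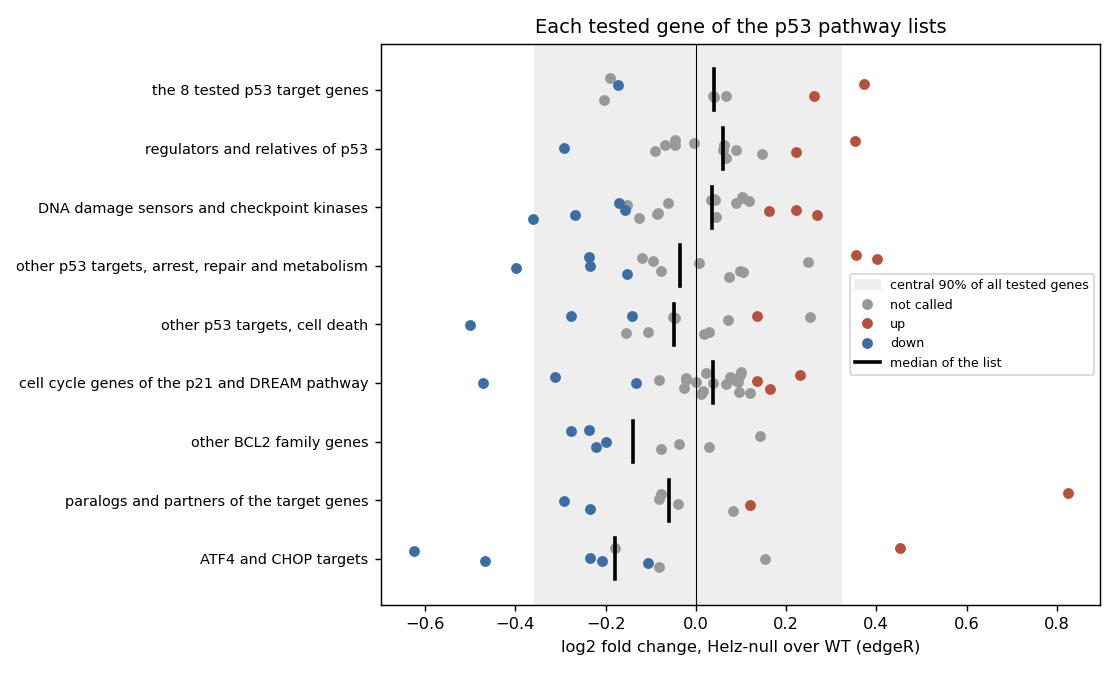
log2 fold change of Helz-null over WT cells (horizontal axis) of each tested gene in the p53 target list and 8 related lists; points are genes, red and blue where up- or down-regulated, black bars are list medians and the grey band holds the central 90% of all tested genes, from -0.36 to 0.32. Medians lie between -0.18, for targets of ATF4 and CHOP, and 0.061, for regulators of p53.

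The neighbourhoods of the p53 targets were looked at in the same way. The median log2FC of the tested genes within 5 Mb was 0.013 for BAX, 0.017 for BBC3, -0.019 for MDM2 and 0.019 for CDKN1A, and for the remaining tested targets it lay between -0.026 and -0.0086. Over all tested genes with at least 10 neighbours, 7.7% had an absolute median of 0.15 or more around them, and 0 of the 8 tested targets did, a count near that share. The neighbours of BAX, BBC3 and MDM2 had a median close to 0, but a median over 5 Mb does not show a change of a shorter stretch. The part of the neighbourhood in the changes of these genes was not tested.

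Several p53 targets also respond to other signals. GDF15 and BBC3 can be raised by ATF4 and CHOP, the factors of the integrated stress response, so they were set beside a list of 9 tested genes of that response, which includes SESN2. Of the 9, 1 was up and 5, SESN2 among them, were down (median log2FC -0.18), which is 66.7% against 29.4% of all genes, with CHAC1 (log2FC -0.63, adjusted p = 1.65e-05) and ASNS (log2FC -0.47, adjusted p = 1.33e-13) lower and ATF3 (log2FC 0.45, adjusted p = 5.72e-09) higher. ATF3 is itself a gene that p53 and other stress factors can induce. ATF4 itself was among the 5 lowered genes (log2FC -0.11, adjusted p = 0.0014 from edgeR). Its call was lost in edgeR with library size only (adjusted p = 0.023) and with upper-quartile scaling (adjusted p = 0.0065). The call of ATF4 was also lost without Helz-null replicate 1 (log2FC -0.099) and without Helz-null replicate 2 (log2FC -0.11). Among the 8 tested genes of the BCL2 family apart from BAX and BBC3, 4 were down and 0 were up in edgeR, with 1 gene above 0 at an unadjusted p under 0.05 (median -0.14), while DESeq2 called 2 down and 0 up. This is 50% called, against 29.4% of all genes tested, and 15.5% of all genes were down. The lowered genes were PMAIP1, BCL2L11, which codes for the BH3-only protein BIM (log2FC -0.24, adjusted p = 0.00043), and the survival genes BCL2L1 (log2FC -0.22, adjusted p = 0.0023) and MCL1 (log2FC -0.20, adjusted p = 5.47e-07). In DESeq2, BCL2L11 (adjusted p = 0.0052) and BCL2L1 (adjusted p = 0.025) were not called. BCL2L11 also lost its call without Helz-null replicate 1 (log2FC -0.14), and BCL2L1 without WT replicate 1 (log2FC -0.12) and without Helz-null replicate 2 (log2FC -0.18), with library size only (adjusted p = 0.0075) and after thinning (adjusted p = 0.0068). BMF, a further BH3-only gene outside the authors' comparison, was higher in Helz-null cells, at 5.32 and 3.98 CPM in WT and 7.77 and 8.56 CPM in Helz-null cells (log2FC 0.79, adjusted p = 4.09e-06 from edgeR on the 16087 genes); it too was named after its values were seen.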

How the data were processed

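Gene-level RNA-Seq counts were analysed for 2 WT and 2 Helz-null replicates. Per the methods, the authors filtered rRNA reads (Bowtie2), aligned the remainder of the paired-end reads to hg19 (TopHat2) and counted per gene with QuasR. The deposited counts are not normalized. Tool versions, gene annotation and the use of strand are not given in the sources used here. The counts exceed the mapped reads that the methods state, so both mates of a pair may have been counted, and halved counts were tried as an alternative. A deposited comparison by the authors holds log2 values (fold change and abundance) and p-values with their FDR; none of these was used, only its list of 10978 genes, which the methods select by FPKM.

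Counts were tested with edgeR 4.0.16 in R 4.3.3 (TMM, estimateDisp, glmQLFit, glmQLFTest, genotype as the only term) and called at an FDR under 0.005, with 95% intervals from the standard error. GDF15 and other genes outside the list were fitted after filterByExpr. Replicates differed by more than counting noise (chi-square of 4.16 and 3.01 per degree of freedom), so none was merged. Floors cover counting error only. Positions came from GENCODE on GRCh37 for 10893 of the 10978 genes, 514 of them by an older symbol. In data simulated for this comparison on 10978 genes, 74 of 100 genes changed 1.2-fold and 99 of 100 changed 1.5-fold were recovered. Every simulated gene had the same coefficient of variation, 2.6%, and changes were planted only in genes with higher counts. Recovery can thus be lower for genes with few counts or more variation. Alternatives covered scaling, test (DESeq2 1.42.0, glmTreat), filters, depth, a replicate block and left-out libraries.

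The target genes and the lists were chosen with earlier results of these data known, and the neighbour comparison and the site search were added after the data were seen. Named genes were the 9 targets, HELZ, the markers, the paralogs, the 3 called genes with the largest absolute log2FC of each other list, and genes counted or described singly. MCL1 and ATF4 are among the last. EDA2R and BMF were named after their values were seen. A gene of the pathway is not reported here and was left out of its list and of the figures.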

Additional observations from a re-analysis of the deposited data

How the results depend on the processing

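No result changed sign while called, and HELZ, with log2FC values from -1.47 to -1.41, was called in 15 of 15 alternatives. BAX and MDM2 were each called in 14 of 15, all but the test against a fold of 1.2, and BBC3 in 10 of 15. CDKN1A, TP53I3, RRM2B and SESN1 were called in 0 of 15. AEN, KIF23, ASNS and ATF3 were called in every alternative, and HIPK2, RFWD2, MDC1, FDXR, FBXO22, PMAIP1, PRC1, TTK, SESN2, CHAC1 and MCL1 in all but the test against a fold of 1.2. With library size only, 2123 genes were up and 1317 down, against 1524 and 1701 with TMM; the targets' median was 0.073, that of regulators 0.094, of sensors 0.070, of arrest, repair and metabolism -0.0010, of cell death -0.015, of cell cycle genes 0.071, of paralogs -0.025, of the BCL2 family -0.10 and of ATF4 and CHOP targets -0.15, and up-regulated genes numbered 4 for p53 regulators, 5 for damage sensors, 2 for cell death, 6 for the cell cycle and 1 for the BCL2 family. Cell death also had 2 up with upper-quartile scaling, robust empirical Bayes or halved counts, and the BCL2 family had 1 up with filterByExpr or no filter, which add BMF and gave that family a median of -0.081. With no filter the median of regulators was 0.025 and that of cell death -0.018. DESeq2 called 1 target up, 2 sensors down and 2 BCL2 family genes down. Against a fold of at least 1.2 (glmTreat), 217 genes were up and 318 down, against 497 and 618 at an unadjusted p under 0.05. Of the targets 0 were up and 0 down by either measure, and 0 either way for regulators, for sensors and for arrest, repair and metabolism; at an unadjusted p under 0.05 these 3 lists had 1, 0 and 2 up and 0, 1 and 1 down. Cell death and cell cycle genes had 0 up and 1 down each, the BCL2 family 0 down, paralogs 1 up and 0 down, and ATF4 and CHOP targets 1 down. Thinning to the smallest library gave 1 target up and 2 down, and the robust fit 2 down.

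The labels tie WT and Helz-null replicates only by their number, and do not say whether those with the same number were prepared together. The deviations of WT replicate 1 and Helz-null replicate 1 from their group means had a correlation of 0.034 over 10978 genes. With a replicate block, 1677 genes were up and 1841 down, and ZMAT3 joined MDM2, giving 2 targets down.

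With each library left out in turn, all genes up ranged from 1027 to 1544 and down from 1180 to 1659. Targets up ranged from 1 to 2, and their median from -0.024 without WT replicate 1 to 0.076 without Helz-null replicate 2. Regulators down ranged from 0 to 2, sensors down from 1 to 4, arrest genes up from 1 to 2, cell death genes up from 0 to 1, cell cycle genes up from 1 to 5, and paralogs up from 0 to 2 and down from 1 to 3. Other medians turned sign or moved by over 1.5 times: that of regulators was -0.0094 without WT replicate 2, 0.040 without Helz-null replicate 1 and 0.028 without Helz-null replicate 2, that of sensors -0.0091 without Helz-null replicate 2, that of cell cycle genes 0.0079 without WT replicate 2 and 0.067 without WT replicate 1, and that of arrest, repair and metabolism -0.0020 without Helz-null replicate 2. That of cell death was -0.028 without WT replicate 2 and -0.032 without Helz-null replicate 2, that of the BCL2 family -0.089 without WT replicate 1, and that of paralogs -0.036 without Helz-null replicate 2. The cause of these differences was not tested. In the simulated data 74 of 100 genes changed 1.2-fold were recovered, so smaller changes can be missed at this depth and number of libraries.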

Other observations

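Some genes of the p53 pathway had few or no reads. TNFRSF10A, a death receptor, and BCL2A1, a survival gene of the BCL2 family, had 0 counts in each of the 4 libraries, which allows up to 3 counts per library, or 0.043 to 0.073 CPM.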
